A study of Homo sapiens with 9 samples.

Results

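RNA from colony cells of transduced A549, a human lung adenocarcinoma cell line, was compared with RNA from the spindle-shaped cells that surround the colonies. The cells of this comparison come from cultures transduced with retroviruses for OCT3/4, SOX2 and KLF4 (together OSK). The comparison uses 6 of the 9 arrays in the series, 3 of OSK-A549-Colony cells and 3 of OSK-A549-SN cells, chosen by their labels. The other 3 arrays hold parental A549 cells, which were not transduced and serve here only to show a gene's level before OSK. Per the labels, arrays of the same number had the same passage number in both transduced groups, and parental A549 was at an earlier passage. In the study's methods, brief trypsin lifted the SN cells off the dish and the colonies that stayed attached were picked, so the groups are fractions of the same cultures separated by how soon they detach, not by a marker. The study asked what the colony cells, which it describes as resembling cancer stem cells, express differently from their neighbours. Both groups come from 1 cell line, and the transductions were repeated to give the 3 arrays of a group.

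On the Colony arrays, genes that NF-kB switches on were higher. In a list of cytokine and adhesion genes, 20 of 21 measured members had a positive difference, against 7705 of all 16695 genes. The median of the list stood at 0.81 on the log2 scale against -0.03 over all genes. This list and those that follow were chosen with earlier results of these data known. IL6, BIRC3, CXCL8, CCL2 and TNFRSF9 had every Colony array above every SN array. The list of ATF4 and unfolded protein genes (NUPR1, CHAC1, ASNS and SLC7A11 among them) had a median of 0.47, and the aryl hydrocarbon receptor targets CYP1B1, TIPARP and CYP1A1 were higher there too. On the SN arrays, genes of mitosis, DNA replication and histone supply were higher by less than a fold of 2. This held for 23 of 24 mitosis genes, 21 of 26 replication genes and 23 of 23 histone genes. Over all 16695 genes, 8990 differences had this sign, a balance that depends on the scaling. Also higher on the SN arrays were TGM2, PADI3 and ACTA2. The list of mesenchymal genes that holds ACTA2 had a median of only -0.10, and ACTA2 was as high in parental A549. No probe passed the corrected test across all probes as planned, and the number that passes depends on how the variance is modelled, as given with the counts.

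NF-kB is a family of transcription factors that is held inactive in the cytoplasm by inhibitor proteins such as NFKBIA and, once freed, switches on cytokines, chemokines, adhesion molecules and its own inhibitors. IL-6, one of its products, signals through IL6ST to STAT3 and is known as a growth and survival signal in lung cancer. ATF4 is translated when amino acids run short or when misfolded proteins build up, and it raises genes of amino acid synthesis and uptake. Genes of mitosis are repressed outside cell division by a complex that binds the short element TTTGAA near their starts, often beside CCAAT boxes, which the factor NF-Y binds.

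The promoters of these groups are shown because most of their members differed in the same direction. Of the 25 listed NF-kB genes, 22 had at least 1 window of 300 bases around a transcription start in the RefSeq table (build GRCh38.p14). Exact matches to the kappaB consensus, a degenerate decamer searched on both strands, lay in 17 of their 27 windows (63.0%), against 11.3% of all 35116 windows. The list was made of genes known to be induced by NF-kB, so this share does not depend on the arrays. It also counts CXCL6 and VCAM1, which were not above background. The 3 windows printed belong to IL6 (chr7:22726950-22727249, plus strand), TNFRSF9 (chr1:7940790-7941089, minus strand) and BIRC3 (chr11:102317234-102317533, plus strand), with the matches in capitals.

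IL6: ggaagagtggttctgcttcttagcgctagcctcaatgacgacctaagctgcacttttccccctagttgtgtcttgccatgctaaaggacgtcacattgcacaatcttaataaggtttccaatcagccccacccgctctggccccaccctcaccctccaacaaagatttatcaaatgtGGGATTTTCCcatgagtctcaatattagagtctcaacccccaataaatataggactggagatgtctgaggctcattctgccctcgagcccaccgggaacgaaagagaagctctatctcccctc

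TNFRSF9: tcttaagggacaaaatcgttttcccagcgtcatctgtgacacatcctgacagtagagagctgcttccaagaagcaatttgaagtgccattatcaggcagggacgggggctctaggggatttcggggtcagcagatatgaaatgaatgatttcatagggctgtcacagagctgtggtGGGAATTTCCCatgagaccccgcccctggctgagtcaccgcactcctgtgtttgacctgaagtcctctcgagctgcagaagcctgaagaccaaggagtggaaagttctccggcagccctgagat

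BIRC3: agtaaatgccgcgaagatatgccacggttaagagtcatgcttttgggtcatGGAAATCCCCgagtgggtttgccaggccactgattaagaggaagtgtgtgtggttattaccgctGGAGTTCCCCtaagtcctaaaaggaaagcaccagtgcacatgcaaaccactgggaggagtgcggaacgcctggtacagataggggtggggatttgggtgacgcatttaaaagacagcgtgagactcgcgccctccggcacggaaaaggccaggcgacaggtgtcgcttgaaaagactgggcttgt

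The capitals in TNFRSF9 are overlapping matches on opposite strands, which counted once. BIRC3 holds a pair of separate matches. Windows of CXCL8 and ICAM1 held none, which says only that these letters are not in those windows.

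In the list of mitosis genes, 21 of 25 had a window. The element TTTGAA, searched on both strands, was in 15 of their 27 windows (55.6%), against 15.2% of all windows. The box CCAAT was in 23 of the 27 (85.2%), against 34.6% of all windows. CENPA (chr2:26785806-26786105, plus strand), CDC25C (chr5:138331828-138332127, minus strand) and CCNB2 (chr15:59104896-59105195, plus strand) hold both elements, each in capitals, with ATTGG as CCAAT read on the other strand. Not every CDC25C window holds them, since chr5:138338306-138338605 and chr5:138338292-138338591 have neither element. The mitosis list too was made from general knowledge, so its shares do not depend on the arrays. A match is a description of the letters and not a bound site.

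CENPA: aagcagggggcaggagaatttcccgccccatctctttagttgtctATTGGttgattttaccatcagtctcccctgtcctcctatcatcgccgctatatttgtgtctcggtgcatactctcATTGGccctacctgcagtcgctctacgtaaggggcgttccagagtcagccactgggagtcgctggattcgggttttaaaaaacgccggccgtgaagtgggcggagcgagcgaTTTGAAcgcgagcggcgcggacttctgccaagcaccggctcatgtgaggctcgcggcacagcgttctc

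CDC25C: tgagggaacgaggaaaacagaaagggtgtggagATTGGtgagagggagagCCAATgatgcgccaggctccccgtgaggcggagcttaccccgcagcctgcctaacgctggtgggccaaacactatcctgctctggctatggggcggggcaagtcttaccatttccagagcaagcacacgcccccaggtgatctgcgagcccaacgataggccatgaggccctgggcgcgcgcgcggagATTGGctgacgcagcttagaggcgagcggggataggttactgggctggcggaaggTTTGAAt

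CCNB2: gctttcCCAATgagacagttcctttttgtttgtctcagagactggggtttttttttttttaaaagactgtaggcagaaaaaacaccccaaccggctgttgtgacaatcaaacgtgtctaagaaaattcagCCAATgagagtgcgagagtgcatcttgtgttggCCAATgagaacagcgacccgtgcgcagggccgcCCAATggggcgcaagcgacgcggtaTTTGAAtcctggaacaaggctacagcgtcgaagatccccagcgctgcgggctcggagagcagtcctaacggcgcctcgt

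The labels were checked against marker genes. Values are log2 intensity after subtraction of the array's 75th percentile, so 0 is the level of a probe at that percentile, and a difference is always OSK-A549-Colony minus OSK-A549-SN. Among markers of A549 and alveolar epithelium, 9 of 10 genes were measured, with AKR1B10, KRT18 and KRT7 between 9.01 and 9.99 on each of the 6 arrays. Their summed linear level was 2302, 2411 and 2385 times the 75th percentile on the Colony arrays and 2454, 2587 and 2157 times on the SN arrays. NKX2-1, a lung lineage factor, was not well above background on any of the 6 arrays. Of the 10 fibroblast and mesenchymal stem cell markers, PDGFRA, PDGFRB, THY1, COL1A2, COL3A1, DCN and LUM were below background on all 6, and the sum of the other 3 was 2.08, 1.26 and 1.43 on the Colony arrays and 1.25, 0.99 and 1.00 on the SN arrays, with NT5E the most abundant. ENG, another of the 3, was above background on SN replicate 3 alone, at -2.39. Endothelial markers summed to between 0.20 and 0.22 on the Colony arrays and between 0.24 and 0.43 on the SN arrays, with CDH5 the most abundant and PECAM1, TEK, CLDN5 and ERG below background. The leukocyte markers summed to 4.24, 4.87 and 4.48 on the Colony arrays and 5.53, 6.44 and 5.33 on the SN arrays, from CD14 and CD68, with CD3E below background on all but 1 array. CD14, a receptor for bacterial lipopolysaccharide, stood at 1.02, 1.39 and 1.33 in OSK-A549-Colony and at 1.68, 2.05 and 1.73 in OSK-A549-SN, and in parental A549 its mean was 1.99. The part of CD14, CDH5 and ENG signal in other differences was not tested.

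Of the genes of the 3 viruses, POU5F1 and KLF4 overlapped between the fractions and SOX2 did not. The POU5F1 (OCT3/4) probe A_24_P144601 read 1.48, 0.65 and -1.84 in OSK-A549-Colony and 1.73, 0.80 and -1.97 in OSK-A549-SN, so the arrays numbered 1 were high and those numbered 3 low in both fractions. Parental A549 read -1.75, -2.45 and -2.15 on this probe (mean -2.12), so the arrays numbered 3 lay within the span of cells without the viruses. A second POU5F1 probe, A_23_P59138, differed by -0.10 (0.03 with array median scaling), and its parental mean of 1.39 was as high as in the transduced cells. KLF4 read 1.50, 0.33 and -0.61 in OSK-A549-Colony and 1.08, 0.55 and -1.33 in OSK-A549-SN, against a parental mean of -2.37. The difference of KLF4 was 0.30 (SE 0.81, or 0.22 with replicate number as a block), and it turned to -0.41 without SN replicate 3, to -0.24 without Colony replicate 1 and to -0.33 with array weights. SOX2 was lower in OSK-A549-Colony, at -2.88, -3.54 and -2.80 against -2.38, -2.50 and -1.66, with a difference of -0.90 (SE 0.31, adjusted p = 0.211, and -0.34 with normexp). Parental A549 read -4.25, -1.47 and -2.96 on this probe, a span that includes both fractions. Whether a probe reads the viral or the cell's own transcript cannot be told from the arrays.

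Across all probes, 31747 reached the detection limit on 1 or more of the 6 arrays and were tested, and they cover 16695 named genes. With p adjusted by the method of Benjamini and Hochberg (limit 0.05) and a fold of more than 2 required, limma called 0 of them (0% of the probes tested), with a smallest adjusted p of 0.0932. At an unadjusted p under 0.05 without a fold minimum, 6181 probes passed. With the fold minimum added, 251 were higher in OSK-A549-Colony (0.791%) and 409 lower (1.29%). Called in the same way with a variance prior that follows intensity and is robust to outliers, 166 probes passed, 133 higher (0.419%) and 33 lower (0.104%), with a smallest adjusted p of 0.00447. Restricted to the 26355 probes above background on all 3 arrays of a group, the planned test called 139, with 103 higher and 36 lower. With all 9 arrays in 1 fit it called 9, and with normexp background correction 32. The count of 0 therefore depends on these settings. With so few arrays, their number limits how precise any value is.

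Separation by array is a plainer description. Every Colony value lay above every SN value for 4288 probes (13.5%) and below for 5499 (17.3%). At 1 probe per gene, the shares were 16.2% above and 16.8% below, with 168 genes higher (1.01%) and 132 lower (0.791%) past the unadjusted p and the fold. These shares are the background for the counts in each gene group, which use the same scaling. The balance over all probes depends on that scaling. It was 6220 above and 2535 below with array median scaling, and 5245 above and 4584 below with quantile normalization. Without SN replicate 3 it was 5383 above and 8908 below.

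The direction of the looser count depends on the dim probes. Of the 409 lower probes, 330 were not well above background on any Colony array, and 196 of these were above it on just 1 SN array, 122 of them on SN replicate 3 alone. Among the 24602 probes above background on all 6 arrays, 127 lay on the higher side in OSK-A549-Colony and 39 on the lower side, 76.5% higher. That share stayed between 62.5% and 94.7% over all settings tried, while the share over all probes past the unadjusted p and fold moved from 38.0% of 660 to 62.7% of 557 with quantile normalization, 56.3% of 695 with scaling to the array median, 60.8% of 337 with the stricter detection filter and 94.7% of 38 with normexp. SN replicate 3, which was alone on its slide, had the highest median of the 6 arrays, -3.56 against -3.82 to -3.69 on the others. Scaling to the array median moved the median difference over all probes from -0.06 to 0.07, and differences below should be read against that shift of all probes.

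**Figure D1:**
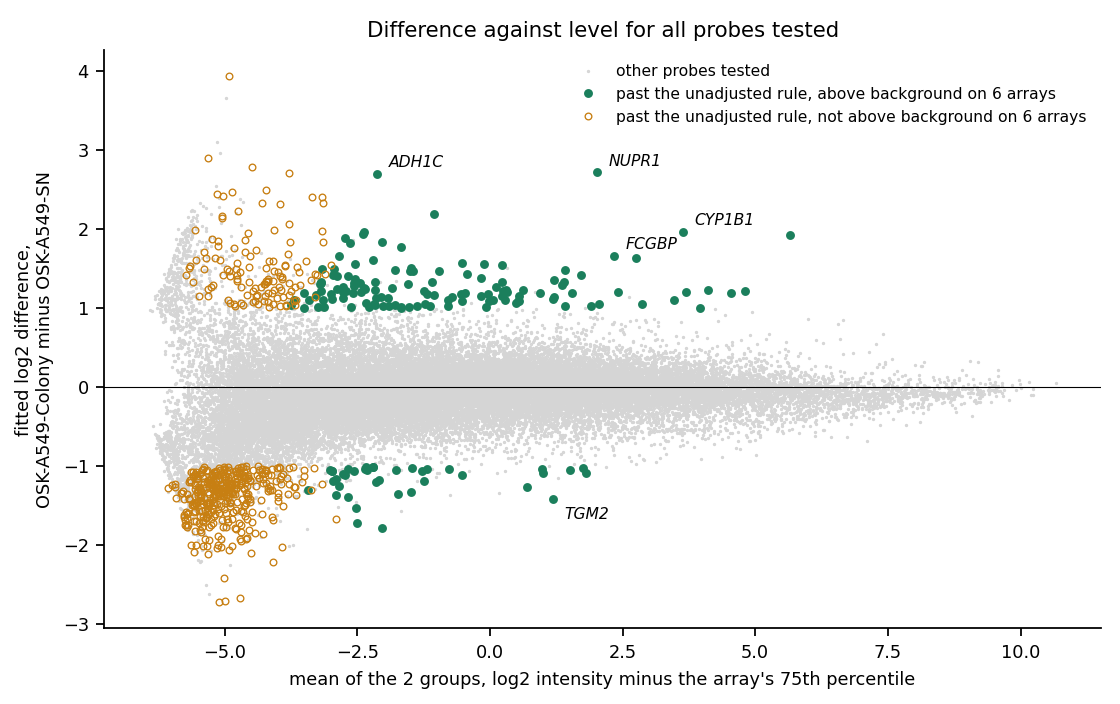
Fitted log2 difference (OSK-A549-Colony minus OSK-A549-SN) of each of the 31747 probes tested against the mean of both groups. Filled points are the 127 higher and 39 lower probes past unadjusted p and fold that were above background on all 6 arrays, and open points are those that were not, which crowd the dim end below 0.

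**Figure D2:**
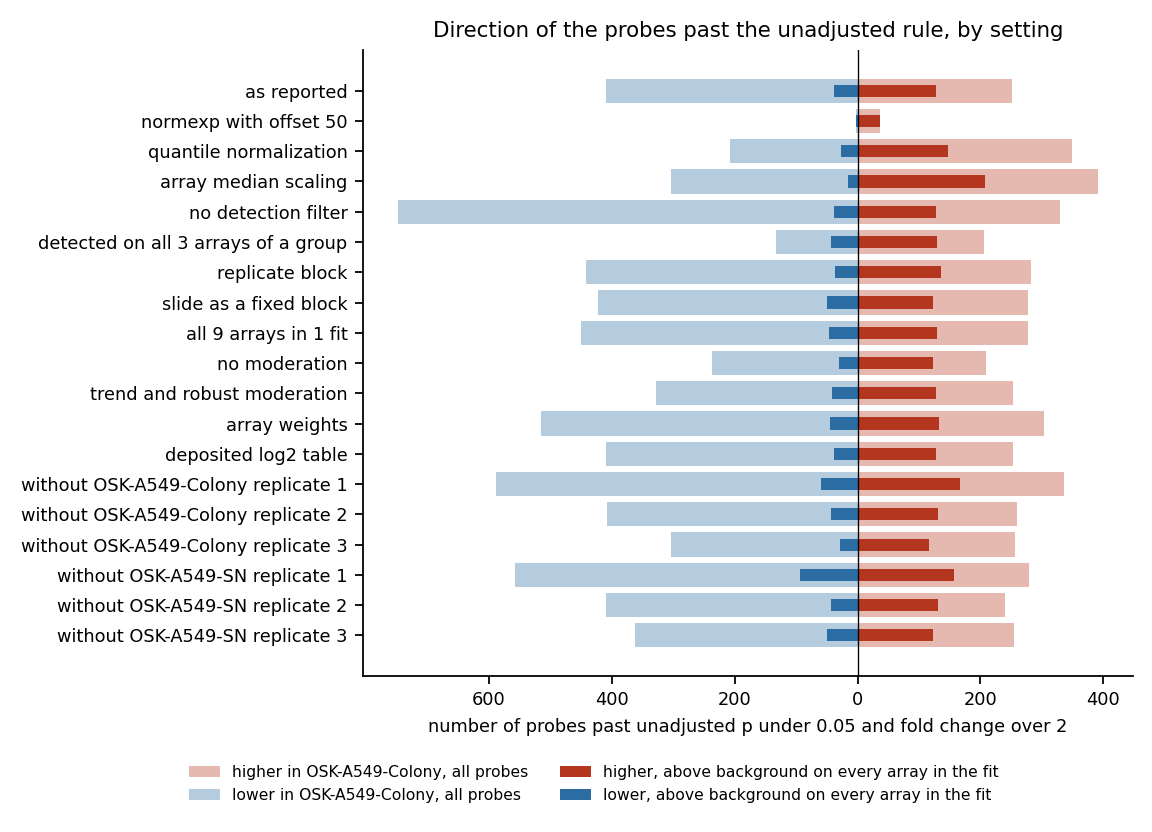
Number of probes past unadjusted p under 0.05 and fold change over 2 in each direction, under each setting. The wide pale bars hold all probes and the narrow dark bars those above background on every array of the fit, where more were higher than lower in OSK-A549-Colony under each setting drawn.

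Over probes above background on all 6 arrays, Pearson's r reached 0.9938 to 0.9968 within OSK-A549-Colony, 0.9873 to 0.9962 within OSK-A549-SN and 0.9825 to 0.9944 between them, and probes are not independent replicates. The median SD of a probe was 0.09 within OSK-A549-Colony, 0.16 within OSK-A549-SN and 0.21 within parental A549. On the main axis of variation, which held 50.3% of the variance, the Colony arrays lay between 20.3 and 24.7 and the SN arrays at -1.2, -14.4 and -51.7. SN replicates 1 and 2 correlated at 0.9962, so the lower values within OSK-A549-SN involve replicate 3, for which slide and sample cannot be told apart.

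The largest differences were ordered among named genes above background on all 6 arrays whose groups did not overlap and whose unadjusted p was under 0.05, a rule that 1855 genes met in the higher and 1596 in the lower direction. NUPR1, a small regulator of transcription induced by stress, read 2.65, 3.34 and 4.17 in OSK-A549-Colony and 0.29, 0.89 and 0.82 in OSK-A549-SN. That is 6.57-fold, the largest by this rule (difference 2.72, SE 0.41, adjusted p = 0.105, and 0.0356 with the intensity-dependent prior, within 0.0231 to 0.318 over all alternatives). ADH1C, an alcohol dehydrogenase, read -1.09, -0.72 and -0.51 against -3.89, -3.41 and -3.12, a 6.49-fold difference (2.70, SE 0.25, adjusted p = 0.0932). Parental A549, at a mean of -1.38, lay closer to the colonies for ADH1C. TCN1, a secreted binding protein for vitamin B12, read 0.50, -0.38 and -0.01 against -1.17, -2.58 and -2.70. FMO5, a flavin-containing monooxygenase, was tight in both fractions, at -1.32, -1.49 and -1.36 against -3.03, -3.52 and -3.49, and its parental mean was -1.14. FCGBP, a large secreted protein of mucus, read 3.15, 3.21 and 3.18 against 1.66, 1.70 and 1.19, which is 3.16-fold (1.66, SE 0.16, adjusted p = 0.0932).

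CYP1B1, a cytochrome P450 that oxidises steroids and polycyclic hydrocarbons, had 2 probes with differences of 1.97 and 1.93. The other 4 genes of the higher group were SNTB1 (1.94), an adaptor of the dystrophin complex, MAL2 (1.83), which carries proteins to the apical membrane of epithelial cells, FUT1 (1.82), which makes the H blood group antigen, and CST1 (1.77), a secreted inhibitor of cysteine proteases. CST1 was the least even of them, with 0.43, -1.87 and -0.94 in OSK-A549-Colony, and its difference ranged from 1.16 to 2.30 when 1 array was left out. Normexp, which shrinks dim values, left NUPR1 at 2.54 and FCGBP at 1.54 but brought ADH1C to 1.37, TCN1 to 1.40, FMO5 to 0.79, SNTB1 to 0.88, MAL2 to 0.99, FUT1 to 0.71 and CST1 to 1.11.

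**Figure D3:**
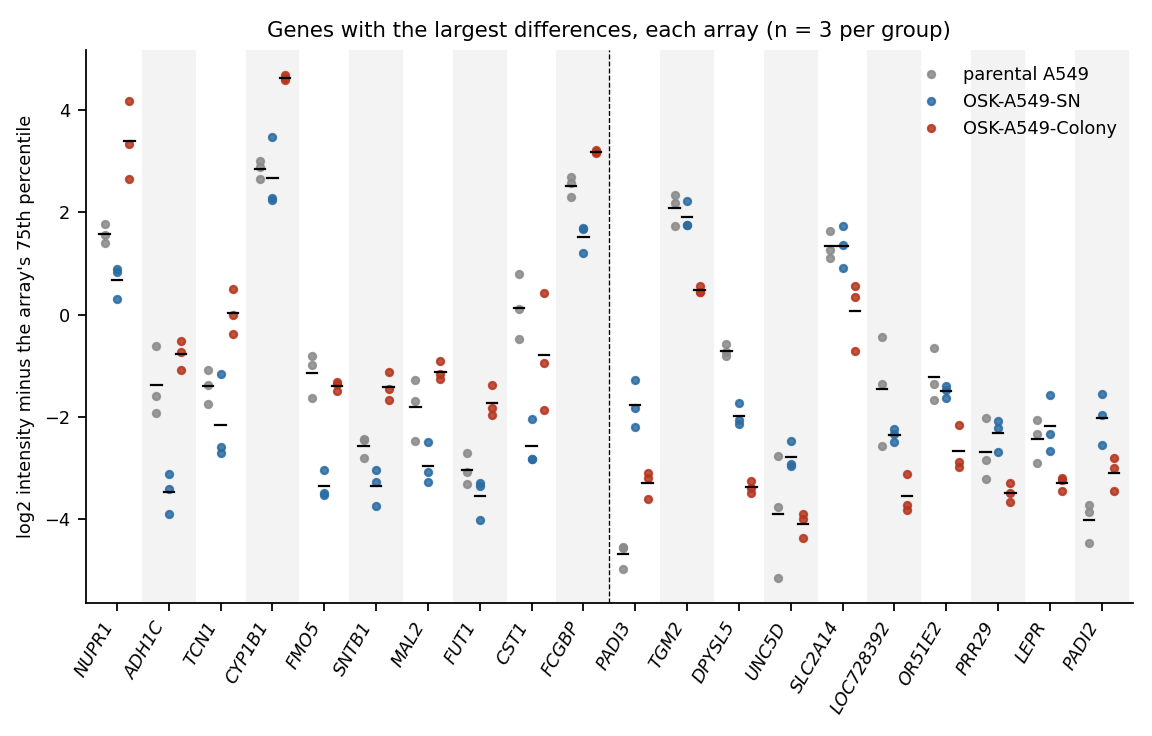
Log2 intensity minus the array's 75th percentile for the 10 genes with the largest positive (left of the dashed line) and the 10 with the largest negative difference. Points are arrays, bars are means of 3 arrays, and Colony and SN points do not overlap for any of the 20 genes, by the rule that chose them.

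Genes higher in the SN cells differed by less. PADI3, which converts arginine in proteins to citrulline, read -3.09, -3.19 and -3.61 in OSK-A549-Colony and -2.20, -1.82 and -1.28 in OSK-A549-SN, 2.88-fold lower in the colonies (difference -1.53, SE 0.27, adjusted p = 0.109). Its relative PADI2 followed with -1.07 on 1 probe, and a second PADI2 probe was above background on all SN arrays, no Colony array and 2 parental arrays. PADI3 was not above background on any parental array, where its mean was -4.68. TGM2, the tissue transglutaminase that crosslinks matrix proteins, read 0.44, 0.44 and 0.55 in OSK-A549-Colony and 1.75, 2.22 and 1.74 in OSK-A549-SN, a difference of -1.42 (SE 0.15, adjusted p = 0.0959), with parental A549 at 2.08. A second, brighter TGM2 probe gave -0.92, and on it the parental mean of 2.53 was close to the Colony arrays (2.54, 2.42 and 2.36) and not to the SN arrays (3.44, 3.58 and 3.06), so the probes differ on the parental level. DPYSL5, a phosphoprotein of growing axons, read -3.48, -3.38 and -3.26 against -2.13, -1.73 and -2.06 (difference -1.40, SE 0.14), with parental A549 higher than both at -0.71. A brighter DPYSL5 probe gave a smaller difference of -0.53, also without overlap. The rest were UNC5D (-1.30), a netrin receptor, SLC2A14 (-1.27), a glucose transporter, LOC728392 (-1.19), OR51E2 (-1.17), an olfactory receptor, PRR29 (-1.16) and LEPR (-1.11), the leptin receptor. A brighter LEPR probe, at 7.00 to 7.27 on all 6 arrays, showed a difference of only -0.02, so the LEPR value holds for 1 probe. Normexp brought PADI3 to -0.59, DPYSL5 to -0.52, UNC5D to -0.31, LOC728392 to -0.36, OR51E2 to -0.57, PRR29 to -0.39, LEPR to -0.32 and PADI2 to -0.44, and left TGM2 at -1.24 and SLC2A14 at -1.09.

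Some genes had a probe above background in only 1 of the fractions. Here a fold is a lower bound, with each dim array set no lower than the lowest value it shows among probes above background. Of 15 genes above background on all Colony arrays and no SN array, with an unadjusted p under 0.05, the largest bound was that of KCNE4, a regulatory subunit of potassium channels, at least 4.44-fold higher, from -2.76, -2.52 and -2.01 in OSK-A549-Colony. IL6 was at least 3.12-fold higher. Its fitted difference of 3.93 was the highest of all genes tested, but it rests on SN values at background and so is no measure of the fold. Next came PTX3, a secreted pentraxin of innate immunity, at least 2.97-fold higher. RPS6KA2, a kinase of the ERK pathway, and the antisense RNA TMEM92-AS1 were both at least 2.83-fold higher, and a second TMEM92-AS1 probe was above background on 1 SN array too, with a difference of 1.43. In the opposite direction, 46 genes met the same rule with all SN arrays and no Colony array. The largest bounds were those of the pseudogene ZNF890P (at least 2.43-fold lower, from -2.06, -3.98 and -3.39 in OSK-A549-SN, with a fitted difference of -1.51 that was -0.97 without SN replicate 1), LINC01762 (at least 2.18-fold lower), the second PADI2 probe (at least 2.12-fold lower) and GATA2, a transcription factor (at least 1.97-fold lower). A second LINC01762 probe was above background on 1 Colony array, and its groups overlapped (-0.65). AZIN2 (at least 1.96-fold lower) and EFR3B (at least 1.94-fold lower) also have probes above background on all 6 arrays, with smaller differences of -0.54 for AZIN2 and of -0.17 and -0.36 for EFR3B. These bounds hold for the scanner's background correction. Normexp gave log2 differences smaller than the bounds, 0.65 for KCNE4, 0.63 for IL6, 0.38 for PTX3, 0.44 for RPS6KA2 and 0.45 for TMEM92-AS1, and -0.35 for ZNF890P, -0.29 for LINC01762 and the second PADI2 probe, -0.26 for GATA2, -0.28 for AZIN2 and -0.15 for EFR3B.

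The groups of genes are given next by role, from lists that hold 8 to 35 measured genes. The lists were chosen with earlier results of these data known, so their order is a description only. The NF-kB list had the largest median of the 23 lists. Every Colony array lay above every SN array for 12 of its 21 measured genes and the reverse was seen for 0, and 6 were past the unadjusted p and fold (IL6, ICAM1, CXCL8, TNFRSF9, CCL2 and BIRC3). With the intensity-dependent prior, 5 of the 21 were called, all but ICAM1 of those 6. IL6 and ICAM1 passed the detection filter through the Colony arrays alone, which favours a positive sign. Of the 21 genes, 18 were above background on all 6 arrays, and with no detection filter the list's median was 0.72. IL6 read -2.36, -2.89 and -3.57 in OSK-A549-Colony and between -7.13 and -6.73 in OSK-A549-SN, where it was at background, as it was in parental A549. CCL2, which draws monocytes, was bright in both, at 5.44, 5.44 and 5.36 against 4.63, 4.16 and 3.80, with parental A549 at 2.96. CXCL8, which draws neutrophils, read -0.36, -0.89 and -0.90 against -1.73, -2.63 and -2.21. BIRC3, an inhibitor of cell death, read 3.47, 3.29 and 3.41 against 2.66, 1.99 and 2.36. TNFRSF9, a costimulatory receptor, read -2.24, -2.49 and -1.83 against -3.38, -3.41 and -3.99 (difference 1.41), and ICAM1, an adhesion molecule for leukocytes, was above background on 2 Colony arrays and no SN array. With normexp, TNFRSF9 was at 0.43 and ICAM1 at 0.20.

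Members of the pathway itself went the same way. RELB, a subunit of NF-kB, read 4.94, 4.80 and 4.93 in OSK-A549-Colony and 4.22, 4.04 and 3.69 in OSK-A549-SN (difference 0.91). NFKB2, the precursor of another subunit, differed by 0.83 and NFKB1 by 0.32, and the inhibitors TNFAIP3 and NFKBIA by 0.96 and 0.36. The chemokines CXCL2 (0.72), CXCL3 (0.61), CXCL5 (0.60) and CXCL1 (0.44) had smaller values, and of these only CXCL2 had no overlap between groups. LIF, at -0.02, was the gene without a positive difference. CSF2, CXCL6, IL1A and VCAM1 were not above background. The median of the list was 0.58 without SN replicate 3 and 0.49 with normexp, the lowest of 19 alternatives, and 0.97 at the highest. Setting IL6 to its bound (1.64 on the log2 scale) could not move the median of 0.81, since the bound also lies above it.

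The wider IL-6 family showed no such shift, with a median of 0.02 over 22 genes (-0.02 to 0.15 over all alternatives), 6 with all Colony arrays above and 1 with all below. Within it, IL6ST, the shared signalling receptor, was higher in OSK-A549-Colony (2.37, 2.45 and 2.51 against 1.98, 1.31 and 1.45), and all 7 of its probes gave differences between 0.52 and 0.86. CLCF1, a ligand of the family, differed by 0.59 and FGB, a fibrinogen chain made in the acute phase response, by 0.90. CEBPD, a transcription factor of that response, went the other way at -0.37, and STAT3 itself stood at 0.03 and its feedback inhibitor SOCS3 at 0.39.

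The list of ATF4 and unfolded protein genes had the next highest median, 0.47 over 25 genes (0.33 without SN replicate 3), and 15 had all Colony arrays above all SN arrays while 2 had all below. CHAC1, which degrades glutathione, read 2.03, 1.65 and 2.32 in OSK-A549-Colony and 0.78, 1.05 and 0.28 in OSK-A549-SN. SLC7A11, the cystine importer, read 5.39, 5.40 and 5.45 against 4.72, 4.20 and 4.48 (difference 0.95). ASNS, asparagine synthetase, was among the brightest, at 6.87, 6.85 and 7.19 against 6.23, 6.16 and 6.11. PPP1R15A, which restores translation after stress, differed by 0.67, DDIT3 by 0.94, and the serine synthesis genes PHGDH and PSAT1 by 0.56 and 0.57. CTH, which makes cysteine, overlapped between the groups at -0.48. Chaperones and folding factors of the endoplasmic reticulum went in both directions: DNAJB9 (0.50) and HSP90B1 (0.11) had all Colony arrays above, PDIA4 (-0.15) and SDF2L1 (-0.27) all below, and HSPA5 (0.04) overlapped. ATF4 mRNA itself, which is controlled mainly at translation, differed by 0.17 with overlapping groups.

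Antioxidant genes driven by NRF2 shifted less, with a median of 0.17 over 18 genes (0.10 without SN replicate 3 and 0.30 with array median scaling), 10 above and 1 below. OSGIN1 (0.88), SRXN1 (0.60), which repairs peroxiredoxins, TXNRD1 (0.53), the thioredoxin reductase, and ME1 (0.31) had no overlap. AKR1C1, abundant in A549, lay near 0 at 0.01, and HMOX1 was at -0.24.

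Of 8 measured genes around the aryl hydrocarbon receptor, 4 had all Colony arrays above all SN arrays and 0 had all below, with a median of 0.42. TIPARP, which modifies and restrains the receptor, read 3.73, 3.42 and 3.56 in OSK-A549-Colony and 2.41, 1.84 and 1.56 in OSK-A549-SN (difference 1.63). The brighter CYP1B1 probe read 6.64, 6.62 and 6.62 against 5.43, 4.30 and 4.37, so the colonies were uniform and SN replicate 1 was closest to them. CYP1A1, the classical target, read -1.55, -2.34 and -1.97 against -3.45, -5.11 and -4.51, and just 1 of the SN arrays was above background (difference 2.41, and 0.72 with normexp). AHR, the receptor, differed by 0.51. The targets CYP1A2 (-0.39) and ALDH3A1 (0.14) did not go with them, both with overlapping groups.

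Immediate early genes were mixed. Their median was 0.17 over 24 genes (0.06 without SN replicate 3, and 0.04 to 0.29 over all alternatives), with 10 above and 3 below. JUN, a subunit of the AP-1 transcription factor, read 1.90, 1.79 and 1.97 in OSK-A549-Colony and 0.86, 0.44 and 0.28 in OSK-A549-SN, 1.36 apart. FOSL1, its partner, read 0.96, 1.03 and 1.27 against 0.19, -0.09 and -0.11. EGR1, a zinc finger factor, differed by 0.99, while DUSP1, a phosphatase that shuts off MAP kinases, was at -0.54. FOS (0.19), MYC (0.13) and JUNB (0.01) overlapped between the fractions.

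Targets of TGF-beta and YAP, which respond to cell shape and tension among other inputs, split in both directions around a median of 0.07 over 23 genes (0.00 without SN replicate 3, 0.23 without SN replicate 1), 8 above and 2 below. Over the whole list, 12 differences were positive and 11 negative, between -1.74 and 1.51. Past the unadjusted p and fold, 2 genes were higher and 1 lower. The members with the smallest p were higher in OSK-A549-Colony and do not stand for all YAP targets. They were CCN1 (4.69, 4.71 and 4.81 against 3.96, 3.78 and 3.50), CCN2 (difference 1.14), AJUBA (2.97, 2.99 and 3.23 against 2.23, 2.24 and 2.22) and SMAD7, an inhibitor of TGF-beta signalling (0.59). TGFBI, a matrix protein induced by TGF-beta, was lower, at 7.65, 7.51 and 7.60 against 8.24, 8.16 and 7.83. The matrix and integrin list had a median of 0.12 over 35 genes (-0.02 with array weights, 0.02 without SN replicate 3, 0.25 with array median scaling), with 6 above and 1 below. ITGB3, the beta 3 integrin (1.60, 0.37 with normexp, and above background on 2 SN arrays), COL12A1 (0.64) and ITGA1 (0.30) were among its members with the smallest p.

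The SN cells look spindle-shaped, and genes that define epithelial and mesenchymal states were therefore read one by one. Epithelial genes had a median of -0.04 over 28 genes (0.09 with array median scaling, 0.01 with quantile normalization and -0.13 at the lowest, so its sign is not fixed), 6 above and 3 below. CDH1, E-cadherin, read 2.44, 2.49 and 2.35 in OSK-A549-Colony and 2.44, 2.71 and 2.62 in OSK-A549-SN. KRT19 (4.15, 4.93 and 5.09 against 3.22, 3.67 and 3.60) and the tight junction genes CLDN1 (difference 0.94) and OCLN (0.47) were higher in the colonies. ESRP1, a splicing regulator of epithelial cells, was above background on all SN arrays and 1 Colony array, at -1.12 (-0.22 with normexp). Mesenchymal genes had a median of -0.10 over 13 measured of 20 (0.03 with array median scaling, -0.21 without SN replicate 3), 0 above and 4 below. Vimentin (VIM) was high in both fractions, at 7.76, 7.86 and 7.81 against 7.81, 7.95 and 7.90. ACTA2, smooth muscle actin, was higher in the SN cells, at 0.14, -0.24 and -0.29 against 0.75, 0.75 and 0.52 (difference -0.81, SE 0.15, adjusted p = 0.110), though parental A549 was as high at 1.17. SNAI1, a repressor of E-cadherin, differed by -0.44 and SPARC, a matrix protein near background, by -1.03 (-0.13 with normexp). FN1, fibronectin, went the other way, at -2.02, -0.97 and -1.18 against -2.87, -1.95 and -2.43, with overlapping groups and a difference of 1.02, past the unadjusted p and fold. TWIST2 gave -0.36 on its brightest probe and 0.37 and 0.32 on the other 2, so it has no direction.

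The lung list went both ways, with 12 positive and 9 negative differences and a median of 0.14 over 21 genes (0.05 without SN replicate 3, 0.04 with normexp, 0.27 with array median scaling), 7 above and 2 below. Its secretory genes named next were singled out after their values were seen. AGR2, which helps mucins fold, read 6.55, 6.36 and 6.37 in OSK-A549-Colony and 5.60, 5.67 and 5.41 in OSK-A549-SN (difference 0.87). MUC5B, a gel-forming mucin, read 3.41, 3.51 and 3.81 against 2.75, 2.82 and 2.69, and SPDEF, a transcription factor of goblet cells, 2.27, 2.28 and 2.38 against 1.37, 1.68 and 1.61. TFF3, a peptide secreted with mucins, differed by 1.20 on its brightest probe (0.46 with normexp), and its dim probes gave 1.35 (above background on 1 Colony array) and -1.40 (above background on 2 SN arrays), so only the first can be read. MUC5B and SPDEF were as high in parental A549 (means 3.75 and 2.52), so for both it is the SN cells that lie apart. SCGB1A1, the secretoglobin of club cells, had all Colony arrays below (-0.42), and the surfactant genes SFTPC (-0.03) and SFTPD (0.21) overlapped.

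In the mitosis list, 22 of 24 measured genes had all Colony arrays below all SN arrays and 0 had all above, and the median was -0.43, between -0.47 and -0.31 over 19 alternatives. CDC25C, a phosphatase that starts mitosis, read -0.05, -0.49 and -0.29 in OSK-A549-Colony and 0.49, 0.50 and 0.47 in OSK-A549-SN, the widest gap of the list (-0.76). AURKB, a kinase of chromosome segregation, read 1.08, 1.03 and 0.93 against 1.60, 1.73 and 1.53. CENPA, the histone of centromeres, read 1.73, 1.71 and 1.60 against 2.19, 2.16 and 2.28, and CCNB2, a mitotic cyclin, 4.81, 4.58 and 4.65 against 5.15, 5.29 and 5.29. MKI67, the usual marker of cycling cells, differed less, with -0.29 on its brightest probe and -0.29 and -0.34 on the other 2. No member reached a fold of 2, so none is among the probes counted with the fold minimum. In bulk RNA, fewer cells in mitosis and less of these RNAs per cell cannot be told apart.

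**Figure D4:**
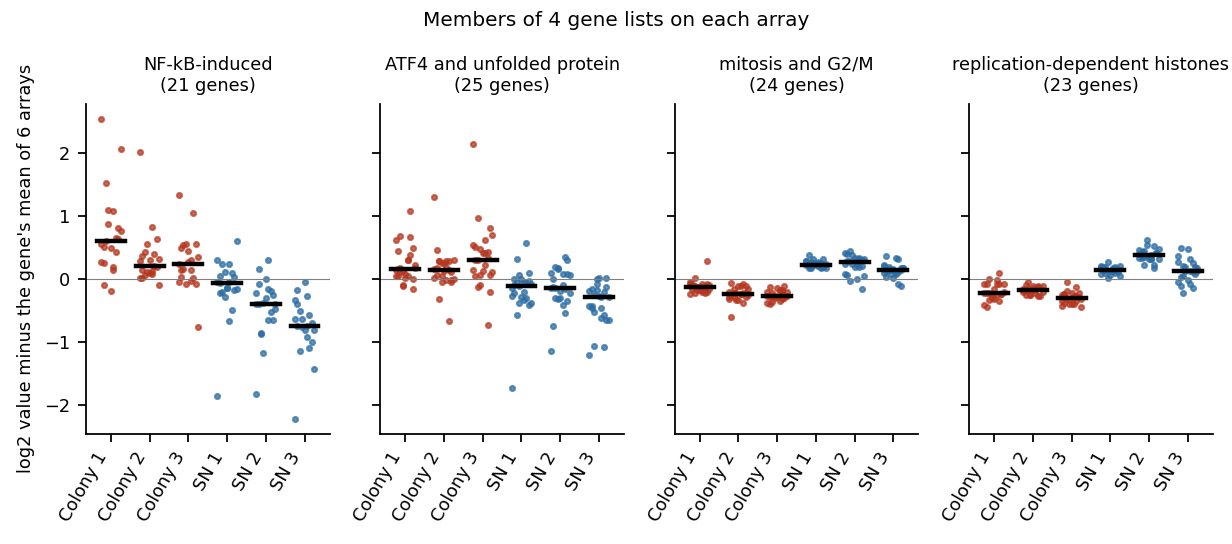
Members of 4 gene lists on each array, as log2 value minus the gene's mean of the 6 arrays, with the median of each array as a bar. Mitosis and histone genes lie in narrow bands, with a lower median on each Colony array than on each SN array, while the NF-kB genes spread widely and SN replicate 1 lies nearest to the colonies.

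DNA replication genes went the same way by less, with a median of -0.26 over 26 genes (-0.13 with array median scaling), 1 above and 18 below. CDC45, part of the replicative helicase, read 4.09, 4.29 and 4.20 against 4.72, 4.85 and 4.65, and TYMS, thymidylate synthase, 5.42, 5.44 and 5.46 against 5.85, 5.95 and 5.86. TK1 (-0.41) and PCNA, the sliding clamp (-0.38, and -0.47 and -0.35 on the other 2 probes), followed. CCND1, a cyclin of early G1, was the 1 gene above, at 0.32, and CCNE1 was at 0.02. Histone genes that are expressed in S phase were below in 19 of 23 and above in 0, with a median of -0.43, between -0.48 and -0.30 over the alternatives. H3C10 read 1.72, 1.93 and 1.79 in OSK-A549-Colony and 2.32, 2.54 and 2.51 in OSK-A549-SN, and H2AC4 1.95, 2.13 and 2.00 against 2.52, 2.82 and 2.88. H1-4 (-0.58) and H2AC13 (-0.65) were alike, and many histone genes are similar enough in sequence that their probes are not independent.

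Brakes on the cell cycle were not higher in the colonies. The list of CDK inhibitors and p53 targets had a median of -0.09 over 20 genes (0.04 with array median scaling, -0.15 without SN replicate 3), 1 above and 5 below, all within a fold of 2. CDKN2D (-0.40) and BTG2 (-0.33) were lower in OSK-A549-Colony, CDKN1A, which encodes p21 (-0.28), and SESN1 (-0.37) overlapped between the groups, and SESN2, which ATF4 also drives, was higher (0.38).

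Genes of pluripotency were not higher on the Colony arrays. Of 12 measured differences, 11 were negative, against 8990 of 16695 over all genes, but just 8 of the 12 genes were above background on all 6 arrays. FGF4 passed the detection filter through 1 SN array alone, which favours a negative sign, so the tally is no measure of a shift. With no detection filter the list's median was -0.11. The list had 12 measured genes of 17, among them the transduced POU5F1, SOX2 and KLF4, with 0 above and 1 below, which was SOX2, and a median of -0.26 (-0.36 to -0.08 over all alternatives, the latter with normexp). NANOG, a core factor of embryonic stem cells, was close to background, at -3.96, -4.20 and -4.40 in OSK-A549-Colony and -3.72, -3.52 and -4.20 in OSK-A549-SN, and above it on 1 Colony array and 3 SN arrays. DNMT3B, a DNA methyltransferase, differed by -0.29 and FGF4, at background, by -0.64. Among surface markers, ALDH genes and drug pumps used to define cancer stem cells, 6 of 16 measured genes were above and 0 below, with a median of 0.17 (0.30 with array median scaling). ALDH2 (4.39, 4.29 and 4.16 against 3.93, 3.89 and 3.71), ABCB1, the multidrug pump (0.37), ALDH1A1 (8.28, 8.33 and 8.39 against 8.01, 8.05 and 8.00) and ALDH3A2 (0.31) were higher in the colonies by under a fold of 2. Parental A549 was at least as close to the Colony as to the SN arrays for all 4, with means of 4.47 (ALDH2), -0.20 (ABCB1), 8.40 (ALDH1A1) and 5.14 (ALDH3A2). CD44, a hyaluronan receptor, stood at -0.20, ABCG2, a drug pump, at 0.18, and PROM1 was not above background on any of the 6 arrays.

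Genes of the Wnt and Notch pathways had a median of -0.24 over 25 genes (-0.11 with array median scaling, -0.14 with normexp), 4 above and 10 below. The Wnt feedback inhibitors NKD1 (-0.87) and AXIN2 (-0.30), the antagonist SFRP1 (-0.02, -0.16 and 0.10 against 0.70, 0.61 and 0.38), the receptor FZD7 (-0.28) and the Notch receptor NOTCH3 (-0.55) had all Colony arrays below. LRP6, a Wnt coreceptor, was above at 0.29, and WNT5A, a ligand of the branch that does not use beta-catenin, gave 1.79 (0.16 with normexp) but was above background on 1 array of the 6.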

How the data were processed

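RNA was measured on single-colour Agilent human arrays, 1 per sample. The authors deposited the scanner output, in which the intensity of each spot is corrected for background by the scanner's software and not scaled between arrays. A log2 table was also deposited; it holds the same values shifted by 1 constant per array. Intensities were turned into log2, control and outlier spots were dropped (except for up to 3 probes per array with no other spot), each of 50599 probes took the mean of its spots and the array's 75th percentile was subtracted. A probe counts as well above background if both detection flags are set on a share of 0.5 or more of its spots. The 75th percentile was 217.5 to 270.7 in intensity units, and 25809 to 29316 probes per array were above background. Names came from RefSeq accessions, with 30275 probes matched. Groups were compared with lmFit and eBayes of limma 3.58.1 in R 4.3.3, checked on simulated data. Gene lists use the brightest probe of each gene. Genes were named by the size rules given with them and, in each list, as the up to 4 members with the smallest p, besides genes the study names; a few other members are given to describe a list and were picked after their values were seen. Members and lists were chosen with earlier results of these data known. Alternatives covered background correction, scaling, filter, blocks, moderation, array weights and leaving out each array.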

Additional observations from a re-analysis of the deposited data

How the results depend on the processing

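Signal over background limits the dim probes, and the number of arrays limits the rest. Of the 19 alternatives for list medians, 4 change only the spread and cannot move a median. Under the others, 314 of 345 list medians moved by less than the spread between replicates. This count overstates the stability, since the deposited table could hardly move a median. Slide as a block also nearly repeats the fit without the SN array that is alone on its slide. Of the named probes, 126 of 128 kept their sign in each alternative run. Many were chosen because their groups did not overlap. Leaving out an array cannot turn the sign of such a probe, so that tally is no measure of stability. Same-numbered Colony and SN arrays share a passage, and POU5F1 and KLF4 follow the number, but over all probes the deviations of same-numbered arrays correlated only at r = 0.06, 0.02 and 0.06, so the number was not used as a pair in the reported values. With replicate number as a block, 0 probes were called, the smallest adjusted p was 0.223 and 725 probes passed the unadjusted p and fold. Leaving out 1 array gave 0 calls each time, with a smallest adjusted p between 0.0593 and 0.306 and 561 to 924 probes past the unadjusted rule. The cause of the following moves was not tested.

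With normexp, 32 probes were called, 38 passed the unadjusted rule and 94.7% of these were higher in OSK-A549-Colony, and the medians were 0.49 for NF-kB, 0.04 for lung and -0.14 for Wnt and Notch genes. With quantile normalization the share higher was 62.7% and the NRF2 median 0.24. With array median scaling the share was 56.3%, and the medians were -0.31 (mitosis), -0.13 (replication), 0.04 (CDK and p53), 0.15 (IL-6 family), 0.09 (epithelial), 0.03 (mesenchymal), 0.25 (matrix), 0.20 (TGF-beta and YAP), 0.60 (ATF4), 0.30 (NRF2), 0.18 (interferon), 0.19 (heat shock), 0.30 (stem cell markers), 0.27 (lung), -0.11 (Wnt and Notch) and -0.30 (histones), and POU5F1 (probe A_23_P59138) turned from -0.10 to 0.03. With no filter, 1077 probes passed the unadjusted rule, 30.5% of them higher. With detection on all 3 arrays of a group, 139 were called, 337 passed the unadjusted rule, 60.8% were higher and the TGF-beta and YAP median was 0.19. With slide as a block, the medians were 0.33 (ATF4), 0.10 (NRF2) and 0.05 (lung), and KLF4 turned to -0.41. With all 9 arrays in 1 fit, 9 probes were called. Without moderation the share higher was 46.9%. The intensity-dependent prior gave 166 calls and a share of 43.5%. Array weights gave a matrix median of -0.02 and KLF4 at -0.33.

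Over the fits without 1 array, lowest and highest values were 33.4% and 45.8% for the share higher, -0.13 and 0.01 for the epithelial median, 0.00 and 0.23 for TGF-beta and YAP, 0.33 and 0.53 for ATF4, 0.10 and 0.21 for NRF2, 0.05 and 0.22 for lung, -0.41 and 0.81 for KLF4 and -0.32 and 0.13 for the same POU5F1 probe.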

Other observations

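Metabolic and interferon genes filled lists with small or mixed differences between the fractions. Genes of cholesterol and fatty acid synthesis had a median of -0.23 over 25 genes (-0.10 with array median scaling, -0.30 without SN replicate 3), 1 with all Colony arrays above all SN arrays and 7 with all below. FASN, the fatty acid synthase, read 4.00, 4.07 and 3.96 in OSK-A549-Colony and 4.32, 4.59 and 4.27 in OSK-A549-SN, the desaturases FADS1 and FADS2 differed by -0.30 and -0.37, and HMGCS1, an early enzyme of the cholesterol pathway, went the other way at 0.39. Genes that respond to low oxygen or serve glycolysis had a median of -0.06 over 21 genes (0.06 with array median scaling, -0.19 without SN replicate 3), 1 above and 0 below. That gene was VEGFA, the endothelial growth factor (1.09, 0.90 and 0.73 against 0.66, 0.38 and 0.21), while HK2 (0.69, and 0.31 without SN replicate 3), LDHA (-0.31) and ANKRD37 (-0.42) overlapped between the groups. Between arrays of the same number, HK2 was higher and LDHA and ANKRD37 were lower in OSK-A549-Colony each time.

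Interferon-stimulated genes had a median of 0.05 over 19 genes (0.00 without SN replicate 3, 0.18 with array median scaling), 6 above and 2 below. MX1, an antiviral GTPase (0.68, and 0.14 with normexp), and IRF1, a transcription factor (0.43), were higher in OSK-A549-Colony, and IFIT1, which binds viral RNA, was lower, at -0.33, -0.97 and -1.18 against -0.03, 0.13 and -0.22, as was IRF9 (-0.32). Cytosolic heat shock genes had a median of 0.06 over 16 genes (0.02 without SN replicate 3, 0.19 with array median scaling), 3 above and 0 below, with the small heat shock proteins HSPB8 (0.56) and CRYAB (0.51) ahead of HSPA1A (0.20) and HSPA1B (0.22). Metallothioneins had a median of -0.12 over 9 genes (0.01 with array median scaling, -0.32 without Colony replicate 1), 2 above and 2 below, with MT1F at 0.45, MTF1, their transcription factor, at 0.27 and MT1A at -0.37. MT1G gave -2.21 but was above background on SN replicate 3 alone.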
